A study of Rattus norvegicus with 16 samples.

Results

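The genes described here are the methyltransferases and lysine demethylases on a rat expression array, chosen by a rule on their names, with earlier results of these data known. A gene was taken when its name on the array began with Prmt, Dnmt, Setd, Mettl, Suv, Ezh, Ehmt, Smyd, Carm1, Nsd1, Trmt, Nsun or Kdm. This gave 79 genes read by 96 probes, of 26269 gene names and 30367 probes on the array. Expression was measured in H35, an established rat hepatoma line, on 16 one-color arrays that carried 4 biological replicates of each of 4 groups. All groups were transfected with an shRNA plasmid and selected with 1.8 mg/ml G418 for 2 weeks. CN-10 is a stable clone that carries a negative control shRNA sequence. The stable clones 4-18 and 3-44 carry shRNA4 and shRNA3, both directed against Pdrg1, a small nuclear and cytoplasmic protein that binds methionine adenosyltransferases. The stable clones received 4 mg/ml G418 for a further 2 weeks. The group shRNA3T is a pool after transient transfection with shRNA3, which went through the first selection only. No control pool was measured, so in shRNA3T against CN-10 the effects of pool or clone, selection and shRNA cannot be told apart. Each stable group is 1 clone, so a difference between clones cannot be told apart from an effect of its shRNA, and as every group had a separate slide, the effects of slide and group cannot be told apart either. The 4-18 slide was also scanned on another day than the other slides.

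Methyltransferases move a methyl group from S-adenosylmethionine to DNA, RNA, proteins or small molecules and leave S-adenosylhomocysteine. The enzymes of this group act on cytosine in DNA, on lysine and arginine in histones and other proteins, and on bases of tRNA, rRNA and mRNA. Lysine demethylases remove methyl groups from histone lysines, either with flavin or, in the Jumonji family, with iron, oxygen and 2-oxoglutarate. In liver the supply of S-adenosylmethionine depends on methionine adenosyltransferases.

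Values are log2 intensities after background correction and quantile normalization, and a difference of 1 on this scale is 2-fold. A gene passed the test with a Benjamini-Hochberg adjusted p under 0.05 from limma over all probes, and it was called at 2-fold when it passed and differed by at least 2-fold. Where several probes read a gene, the brightest stands for it. Between 53.1% and 64.1% of gene spots were well above background on the 4-18 arrays, and between 64.7% and 74.3% on the arrays of the other groups. No member spot was saturated. The Pdrg1 probe had group means of 13.6 (CN-10), 12.9 (4-18), 12.7 (3-44) and 12.8 (shRNA3T). The log2 differences from CN-10 were -0.77 (SE 0.34, adjusted p = 0.129), -0.99 (SE 0.34, adjusted p = 0.105) and -0.85 (SE 0.34, adjusted p = 0.143), in the same order. The Pdrg1 value of the first replicate was the lowest of its group in all 4 groups, and in the 3 silenced groups it lay apart from the others, at 11.57 in 4-18 against 13.25 for the nearest other array. Without the first replicates the log2 differences of Pdrg1 were -0.41 (adjusted p = 0.00659), -0.81 (adjusted p = 0.000302) and -0.79 (adjusted p = 0.000208). Those of 4-18 and shRNA3T also passed with 75th percentile scaling (adjusted p = 0.0482 and 0.0406) and with the processed signal (0.0407 and 0.0413). Those of 3-44 and shRNA3T passed without 4-18 replicate 1 (adjusted p = 0.0085 and 0.0147), where that of 4-18 was -0.33 (adjusted p = 0.349). They also passed with array weights (0.0089 and 0.0078) and with the arrays of the 2 groups alone (0.0378 and 0.0063). With a block for the replicate number all 3 passed (adjusted p = 0.0176, 0.0108 and 0.0183). In the deposited values, unscaled between arrays, that of 4-18 was -1.52 (adjusted p = 0.0206). Where the call of a named member changes without the first replicates, both values are given. In the deposited table of values unscaled between arrays, no member passed in 3-44 and of the named members only Kdm3a and Kdm5b passed in shRNA3T, so all other calls of named members in these 2 groups were lost there, which is not repeated for each gene. Of 8 hepatocyte markers 6 were well above background on all 16 arrays, among them Alb, Ttr and Afp, while of 3 macrophage and 3 cholangiocyte markers none was. Col1a1 and Cdh5, 1 of 3 fibroblast and 1 of 3 endothelial markers, were also well above background on all 16 arrays. The endothelial marker Pecam1 and the macrophage marker Ptprc were so on none. The other macrophage markers, all 3 cholangiocyte markers and the hepatocyte markers Apoa1 and Hnf4a were so on some arrays but not all. Fewer cells that express a gene and less RNA per cell cannot be told apart in these bulk samples.

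Sequences of the members on which the results turn are shown here, so that the measured and the regulatory bases can be read beside the values. The first set are array probes of 60 bases that cross at least 1 junction, since their positions span more bases of the rn4 genome than the probe has. In all, 16 of the 96 member probes did so. The Mettl3 probe maps to chr15:27745333-27745690 (minus strand), the Kdm3a probe to chr4:104868116-104868260 (minus strand) and the Mettl23 probe to chr10:106952886-106953018 (plus strand). No exon or untranslated region is stated because no annotation of rn4 was used. No base is in capitals in this set.
Mettl3: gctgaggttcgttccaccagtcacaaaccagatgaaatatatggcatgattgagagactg
Kdm3a: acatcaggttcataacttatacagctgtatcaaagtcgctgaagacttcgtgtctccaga
Mettl23: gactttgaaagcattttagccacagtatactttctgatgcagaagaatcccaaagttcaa

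The second set are RefSeq promoters on GRCr8, from 250 bases before the start of the gene to 30 after it. They are those of Ezh2, the member with the lowest log2 difference, of Kdm5b, the member with the highest, and of Trmt61a, which was lower in every silenced group. Capitals mark CCAAT, the E2F letters TTTGGCGC, and ACGTG, the core of the hypoxia response element, each read on both strands. All of these are present in Ezh2 (chr4:77687154-77687433, minus strand), and only ACGTG in Kdm5b (chr13:48554147-48554426, plus strand) and Trmt61a (chr6:136558167-136558446, plus strand).
Ezh2: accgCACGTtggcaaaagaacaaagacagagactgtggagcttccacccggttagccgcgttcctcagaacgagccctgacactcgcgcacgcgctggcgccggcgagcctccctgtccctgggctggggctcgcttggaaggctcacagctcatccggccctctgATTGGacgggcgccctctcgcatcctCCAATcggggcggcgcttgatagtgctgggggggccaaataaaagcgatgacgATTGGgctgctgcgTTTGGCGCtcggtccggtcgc
Kdm5b: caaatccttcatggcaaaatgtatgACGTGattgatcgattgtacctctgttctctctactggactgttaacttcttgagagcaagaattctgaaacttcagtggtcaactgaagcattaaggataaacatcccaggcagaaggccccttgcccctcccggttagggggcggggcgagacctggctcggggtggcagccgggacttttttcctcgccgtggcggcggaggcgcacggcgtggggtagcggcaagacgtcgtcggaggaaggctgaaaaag
Trmt61a: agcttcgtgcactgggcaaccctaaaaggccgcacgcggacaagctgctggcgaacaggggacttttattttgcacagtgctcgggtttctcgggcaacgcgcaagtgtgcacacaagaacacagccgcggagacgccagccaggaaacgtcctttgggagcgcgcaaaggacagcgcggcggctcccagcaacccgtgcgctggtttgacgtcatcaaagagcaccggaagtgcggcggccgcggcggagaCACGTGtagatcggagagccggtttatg
The Ezh2 window held 3 CCAAT matches, 1 E2F match and 1 ACGTG. The Kdm5b window held 1 ACGTG, lying 225 bases before the start. In Trmt61a the letters read ACGTG on both strands, which makes them 1 CACGTG. No ACGTG was present in the promoters of Kdm3a, Mettl7a, Mettl10, Mettl23, Prmt1, Prmt10 and Trmt2a, which are not shown.

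All 79 names matched a gene in RefSeq, 63 of them through an accession, and 68 had an entry in the promoter table. In 9 the current symbol differs, for example Eef1akmt2 for Mettl10, Prmt9 for Prmt10, Kmt5b for Suv420h1 and Kmt5c for Suv420h2. The names of the array are used here. The 68 promoters, over their whole windows in the table, to 50 bases after the start, were rich in CpG. The ratio of observed to expected CpG was over 0.6 in 82.4% of them, against 36.8% of all 27457 promoters, and the median GC content was 60.5% against 52.3%. ACGTG was present in 30.9% (all promoters 19.7%), and CACGTG, which contains it, in 13.2% (6.65%). CCAAT was present in 44.1% (37.7%), and the E2F letters TTTCCCGC or TTTGGCGC in 4.41% (1.53%). These are descriptions of the windows and not binding sites.

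Most of the members were expressed in H35 cells. By their brightest probe, 63 of the 79 genes gave a signal well above background on all 16 arrays. By any of their probes, 71 (89.9%) did so on every array of 1 group or more. The share of all genes was 62.7%, but by the brightest probe alone. The 8 genes outside these 71 were Dnmt1, Dnmt3l, Mettl11b, Mettl21c, Mettl7b, Nsun7, Prmt6 and Prmt8, and 5 of these, Dnmt1, Dnmt3l, Mettl7b, Nsun7 and Prmt8, were well above background on no array. Dnmt1, the maintenance DNA methyltransferase, was read by a single probe with group means of 6.25 (CN-10), 6.24 (4-18), 6.30 (3-44) and 6.25 (shRNA3T). That probe gives at most an upper bound for Dnmt1 in any group, and whether it reads the transcript was not tested.

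Members rose and fell in each silenced group, and after quantile normalization their median differences lay close to those of all genes. In 4-18, 11 of the 79 passed as higher and 15 as lower, against 11.6% and 12.4% of all genes, and 6 (7.59%) were called at 2-fold against 6.15%. In 3-44, 4 were higher and 7 lower, against 3.45% and 4.69%, and 1 (1.27%) was called at 2-fold against 1.47%. In shRNA3T, 6 were higher and 11 lower, against 5.13% and 7.04%, and 2 (2.53%) were called at 2-fold against 2.39%. The shares called at 2-fold were close to those of all genes. The median log2 difference of the members was -0.01 in 4-18, -0.019 in 3-44 and -0.007 in shRNA3T, against 0.003, -0.008 and -0.008 for all genes. The shares that passed were above those of all genes in each comparison and direction, from 19% against 12.4% for lower in 4-18 to 5.06% against 3.45% for higher in 3-44. More of the members than of all genes were well above background, and the part of this in the shares was not tested. All 3 comparisons share the CN-10 arrays, so they are not independent of each other.

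**Figure D1:**
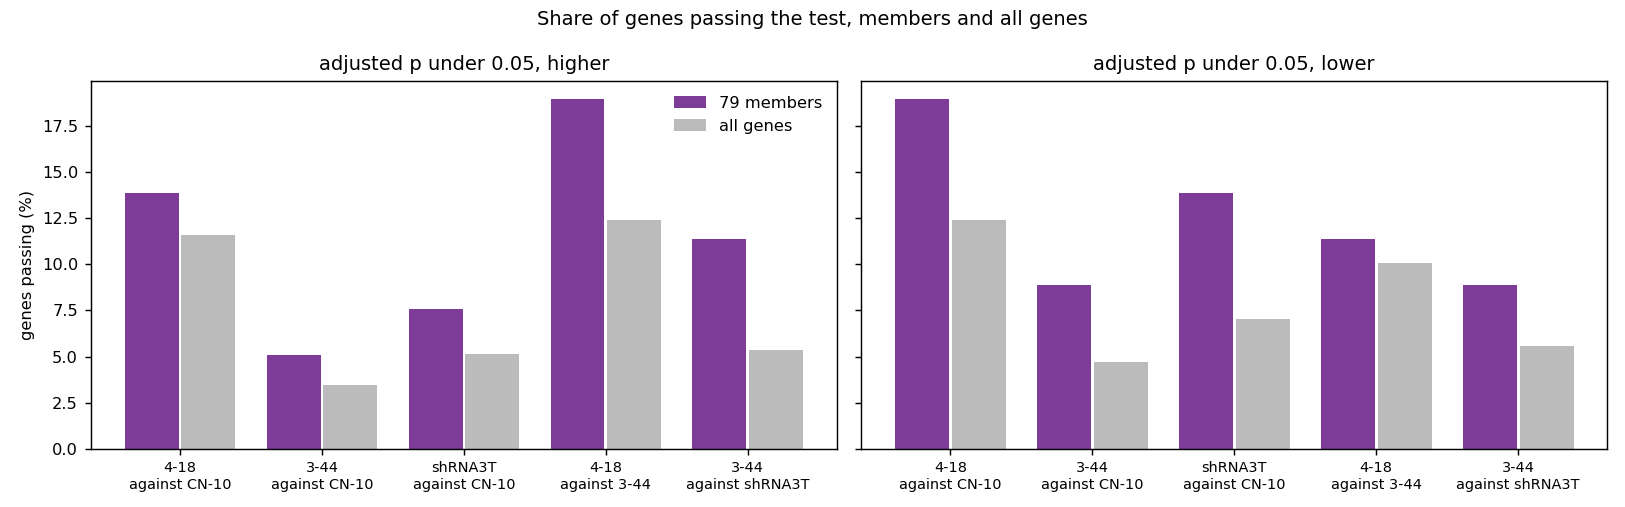
Share of genes with an adjusted p under 0.05, in percent, among the 79 members (purple) and all genes on the array (grey), higher on the left and lower on the right, for 5 comparisons. The member bar is above the grey bar in all 10 pairs, at 13.9% against 11.6% for higher in 4-18 and 19% against 12.4% for lower.

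Ezh2 and Mettl3 were the 2 members with the lowest log2 differences, both in 4-18, and Kdm5b in shRNA3T had the highest. The plot of log2 fold changes by family shows the 79 genes side by side in the 3 comparisons.

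**Figure D2:**
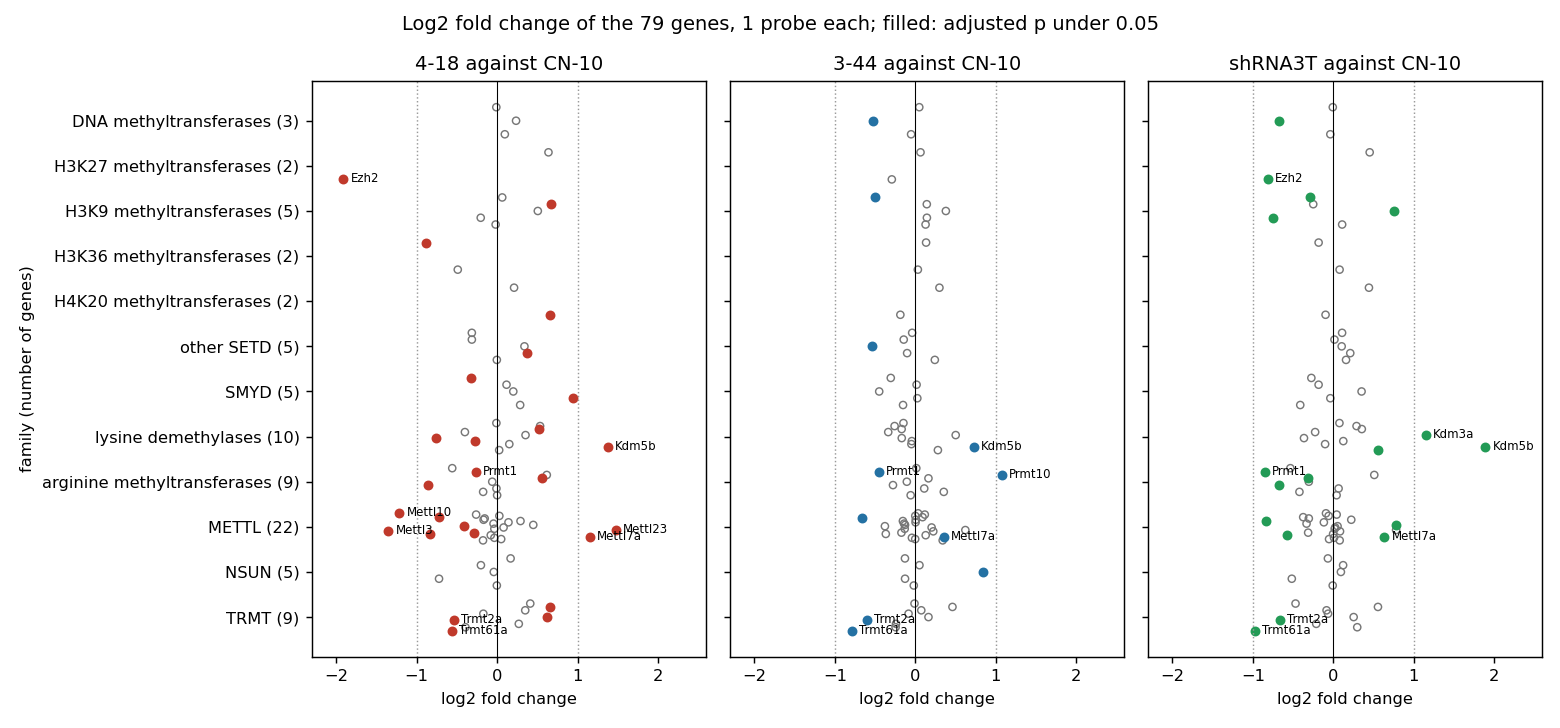
Log2 fold change (horizontal axis) of each of the 79 genes against CN-10, 1 panel per silenced group, arranged by family with the number of genes in parentheses. Filled points have an adjusted p under 0.05, open points do not, and dotted lines mark 2-fold. Points past the dotted lines are Ezh2, Mettl3, Mettl10, Kdm5b, Mettl7a and Mettl23 in 4-18, Prmt10 in 3-44, and Kdm5b and Kdm3a in shRNA3T.

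Among the writers of repressive histone marks, Ezh2, the catalytic subunit of Polycomb repressive complex 2 that methylates H3K27, fell in 4-18 and in shRNA3T. Its arrays read 10.31, 10.15, 10.28 and 10.22 in CN-10. They read 8.62, 8.16, 8.72 and 7.81 in 4-18, all below every CN-10 array. They read 10.26, 9.88, 9.93 and 9.73 in 3-44 and 9.47, 9.62, 9.33 and 9.29 in shRNA3T. The shRNA3T arrays lay between those of 4-18 and 3-44 without overlap, and 3-44 overlapped CN-10. Against CN-10 Ezh2 was 3.77-fold lower in 4-18 (log2 -1.91, SE 0.17, adjusted p = 1.12e-06) and 1.76-fold lower in shRNA3T (log2 -0.82, SE 0.17, adjusted p = 0.00463), while the log2 difference in 3-44 was -0.29 (adjusted p = 0.39). The fall in 4-18 stood under all 26 alternatives of the processing, with log2 values from -2.21 to -1.79. The 4-18 value was also lower than that of 3-44 (log2 -1.62, SE 0.17, adjusted p = 6.15e-06). Ezh1, the other H3K27 methyltransferase, did not fall. Its brighter probe gave log2 differences of 0.64, 0.07 and 0.45 in 4-18, 3-44 and shRNA3T, none of which passed, and its dimmer probe 0.84, 0.30 and 0.05, of which the first passed. Eed, a core subunit of the same complex, gave -0.23, -0.33 and -0.04, and none passed.

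The H3K9 methyltransferases moved one by one. Ehmt2 (G9a), which dimethylates H3K9 together with Ehmt1, was higher in 4-18. It read between 11.08 and 11.30 in CN-10 and between 11.75 and 11.85 in 4-18 (log2 0.66, SE 0.10, adjusted p = 0.00021). Its 3-44 and shRNA3T differences were 0.14 and -0.25 and did not pass. The shRNA3T difference passed without 3-44 replicate 1 (adjusted p = 0.0422), with array weights (0.0126) and with the arrays of the 2 groups alone (0.0316), but it was 0.04 with 75th percentile scaling and 0.05 with the processed signal. Of the differences from CN-10 that passed among the named members, that of Ehmt2 in 4-18 alone changed sign under an alternative that was run, to -0.06 in the deposited table of unscaled values. With 75th percentile scaling it was 0.32 (adjusted p = 0.136) and with the processed signal 0.33 (adjusted p = 0.131), so the call was lost under each of these scalings. Ehmt1 was lower in 3-44 (log2 -0.50) and shRNA3T (-0.29) and was 0.06 in 4-18. Suv39h2 passed in no comparison with CN-10. Suv39h1, a trimethylase of H3K9, was lower in shRNA3T, at 7.41, 7.62, 7.45 and 7.28 against 7.72, 8.53, 8.11 and 8.40 in CN-10 (log2 -0.75, SE 0.16, adjusted p = 0.00533). Every shRNA3T array lay below every CN-10 array. Over the 26 alternatives of the processing the shRNA3T difference ran from -1.33 to -0.51. A second Suv39h1 probe gave -0.76 there, and the third, which was well above background on no shRNA3T array, gave -0.01. In 4-18 the brightest probe gave -0.21 and did not pass, the second passed as lower (-0.35, adjusted p = 0.0421), and the third gave -0.04. Setdb1, which trimethylates H3K9, was higher in shRNA3T by both of its probes (log2 0.76 and 0.42). Its dimmer probe also passed in 4-18 (0.38) and 3-44 (0.59), where its brighter probe gave 0.50 and 0.38 and did not pass.

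Of the 2 H3K36 methyltransferases, Nsd1 was read differently by its 3 probes. It was lower in 4-18 by its brightest probe (log2 -0.88), while its other probes gave 0.30 and -0.07 there. In shRNA3T these other probes gave -0.50 and -0.55 and passed, and the brightest gave -0.18 and did not. In 3-44 the brightest gave 0.13 and the other probes 0.11 and -0.52, of which the last alone passed (adjusted p = 0.0275). Setd2, which trimethylates H3K36, did not pass in any comparison with CN-10 (log2 -0.49, 0.03 and 0.08, SE 0.32). Its CN-10 arrays alone ranged from 9.98 to 10.76. In the deposited table its 4-18 difference was -1.11 and passed (adjusted p = 0.0314). Of the H4K20 methyltransferases, Suv420h2 was higher in 4-18 (log2 0.66) and Suv420h1 passed in no comparison with CN-10. Among the other SET and MYND proteins, Smyd4 (0.94) and Setd6 (0.37) were higher and Smyd1 (-0.33) lower in 4-18, and Setd5 was lower in 3-44 (-0.53). Setd3, Setd4, Setd7, Smyd2, Smyd3 and Smyd5 passed in no comparison with CN-10. In shRNA3T none of the 10 genes of the SMYD family and the remaining Setd genes passed.

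DNA methyltransferases were represented by 1 gene above background. Dnmt3a, a de novo DNA methyltransferase, was lower in both groups that carry shRNA3. It read 8.23, 8.19, 8.35 and 8.15 in CN-10, 7.97, 7.74, 7.66 and 7.45 in 3-44, and 7.23, 7.67, 7.79 and 7.57 in shRNA3T. All arrays of both groups lay below those of CN-10. The 3-44 arrays were lower by a log2 difference of -0.53 (SE 0.14, adjusted p = 0.0275), and those of shRNA3T by -0.67 (SE 0.14, adjusted p = 0.00414). In 4-18 Dnmt3a read 8.68, 8.49, 8.53 and 8.16 (log2 0.23, adjusted p = 0.254) and was higher than in 3-44 (log2 0.76, SE 0.14, adjusted p = 0.000842). The 3-44 call was lost when any one of CN-10 replicates 1, 2 and 3 or 3-44 replicates 2, 3 and 4 was left out, with adjusted p up to 0.0903, and with the processed signal (adjusted p = 0.0511).

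The lysine demethylase Kdm5b, which removes methyl groups from H3K4, was higher in all 3 silenced groups. Its arrays read 10.33, 10.20, 10.29 and 10.05 in CN-10. They read 11.26, 11.70, 11.77 and 11.65 in 4-18, 10.55, 10.90, 10.82 and 11.52 in 3-44, and 11.99, 11.89, 12.17 and 12.37 in shRNA3T. No array of a silenced group overlapped CN-10, and the 3-44 arrays lay nearest to it. Kdm5b was 2.59-fold higher in 4-18 (log2 1.37, SE 0.18, adjusted p = 3.8e-05), 1.66-fold higher in 3-44 (log2 0.73, SE 0.18, adjusted p = 0.018) and 3.70-fold higher in shRNA3T (log2 1.89, SE 0.18, adjusted p = 5.47e-06). The clone and the pool that carry shRNA3 differed from each other (log2 -1.16, SE 0.18, 3-44 against shRNA3T, adjusted p = 0.000514). The 3-44 call was lost without CN-10 replicate 4 (log2 0.67, adjusted p = 0.0538), and the 4-18 call in the deposited table (log2 0.70, adjusted p = 0.0767).

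Kdm3a, an H3K9 demethylase and a known target of hypoxia-inducible factor, was 2.22-fold higher in shRNA3T. It read 9.86, 10.29, 10.82 and 10.63 in CN-10, 10.84, 10.72, 10.48 and 10.97 in 4-18, 11.01, 10.78, 10.89 and 10.92 in 3-44, and 11.78, 11.61, 11.44 and 11.38 in shRNA3T. The shRNA3T arrays were above all others, whereas those of 4-18 and 3-44 overlapped CN-10. The log2 differences were 0.35 (adjusted p = 0.161), 0.50 (adjusted p = 0.0934) and 1.15 (SE 0.17, adjusted p = 0.000327). The first CN-10 replicate was the lowest of the 16 arrays. Without CN-10 replicate 1 the log2 difference in shRNA3T was 0.97, and without the first replicates of all groups it was 0.89 (adjusted p = 0.0021), both under 2-fold. Without CN-10 replicate 3 the differences in 4-18 (0.49, adjusted p = 0.048) and 3-44 (0.64, adjusted p = 0.0321) passed. The 4-18 difference also passed with 75th percentile scaling (0.74, adjusted p = 0.00531) and with the processed signal (0.75, adjusted p = 0.00382), but it was -0.31 (adjusted p = 0.439) in the deposited table. Kdm6b, an H3K27 demethylase, was higher in shRNA3T (log2 0.56, SE 0.15, adjusted p = 0.0227). It read between 9.93 and 10.37 in CN-10 and between 10.58 and 10.83 in shRNA3T. The call was lost without CN-10 replicate 2 or 4 or shRNA3T replicate 3 or 4, with adjusted p up to 0.0817. Kdm1a, the flavin-dependent H3K4 demethylase, gave log2 differences of -0.01, -0.15 and 0.08 (SE 0.17) and passed in none. Kdm2a was higher in 4-18 by both probes (0.52 and 0.46). Kdm4a was lower there (-0.76), where it was well above background on 3 of 4 arrays, as were Mettl4 and Smyd1. Kdm4d passed as lower in 4-18, where it was well above background on no array, so its level there is only a bound and no fold is given. Kdm1b by its brighter probe, Kdm2b and Kdm4dl passed in no comparison with CN-10. Of the 10 demethylases, 2 were higher and 2 lower in 4-18 (all genes 11.6% and 12.4%), 1 was higher in 3-44 (3.45%) and 3 were higher in shRNA3T (5.13%).

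**Figure D3:**
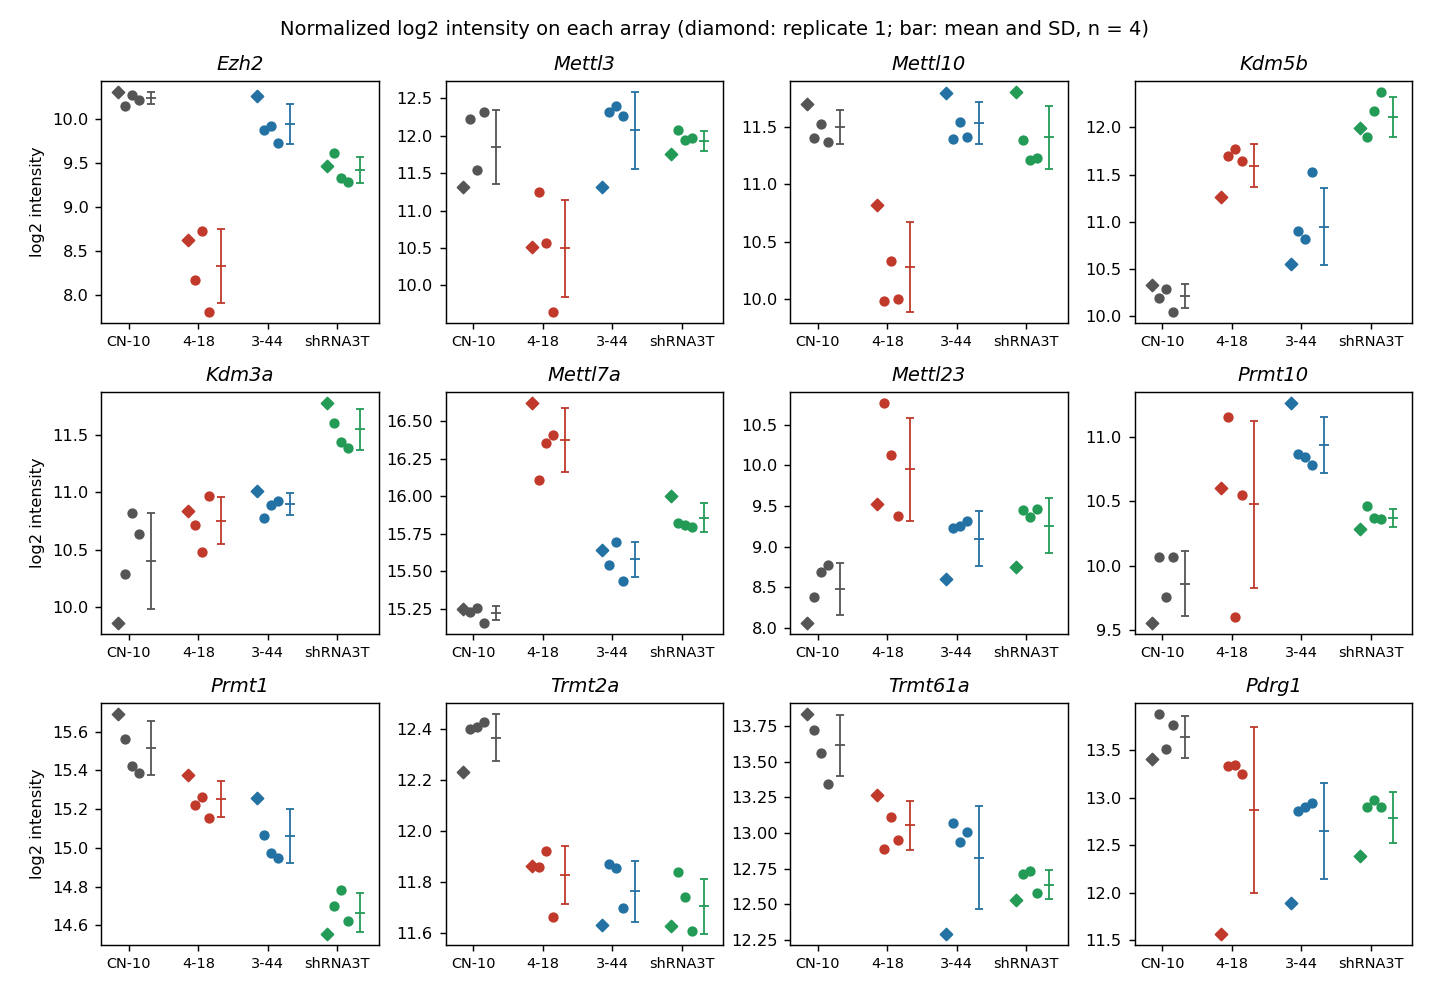
Normalized log2 intensity (vertical axis, its own scale in each panel) on each of the 16 arrays for 11 members and Pdrg1, with the 4 groups side by side. Diamonds are the first replicates, circles the others, and the bar gives the mean and SD of the 4 arrays. Ezh2 in 4-18 sits between 7.81 and 8.72, below all other groups, and Kdm5b in shRNA3T between 11.89 and 12.37, above all others.

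Among the arginine methyltransferases, Prmt1, which makes most asymmetric dimethylarginine, was lower in all 3 silenced groups. It read 15.69, 15.56, 15.43 and 15.38 in CN-10, 15.38, 15.22, 15.26 and 15.16 in 4-18, 15.26, 15.07, 14.97 and 14.95 in 3-44, and 14.56, 14.70, 14.79 and 14.62 in shRNA3T. The 3-44 and shRNA3T arrays lay below all CN-10 arrays and apart from each other, and the highest 4-18 array came close to the lowest CN-10 array. The log2 differences were -0.26 (SE 0.09, adjusted p = 0.0477), -0.46 (SE 0.09, adjusted p = 0.00527) and -0.85 (SE 0.09, adjusted p = 1.82e-05). The pool was lower than the clone with the same shRNA (log2 0.39, SE 0.09, 3-44 against shRNA3T, adjusted p = 0.0105). The 4-18 call was lost under 15 of the 26 alternatives. Among these were 11 in which 1 array was left out, namely CN-10 replicates 1, 2 and 3, 4-18 replicates 2, 3 and 4, 3-44 replicates 2 and 3, and shRNA3T replicates 2, 3 and 4, with adjusted p up to 0.141. The 3-44 call was lost with 75th percentile scaling (log2 -0.19, adjusted p = 0.381) and with the processed signal (log2 -0.28, adjusted p = 0.108). In the deposited table the 4-18 value was -0.95.

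Prmt5, the main enzyme of symmetric dimethylarginine, was lower in 4-18 and shRNA3T. It read 12.87, 12.79, 12.55 and 12.51 in CN-10, 12.16, 11.72, 11.75 and 11.66 in 4-18, 12.53, 12.32, 12.32 and 12.44 in 3-44, and 12.27, 11.88, 11.91 and 11.93 in shRNA3T. The 4-18 and shRNA3T arrays were below all CN-10 arrays, and 1 of the 3-44 arrays overlapped CN-10. The log2 differences were -0.86 (SE 0.12, adjusted p = 0.000113), -0.28 (SE 0.12, adjusted p = 0.23) and -0.68 (SE 0.12, adjusted p = 0.00178), and the 3-44 difference passed with array weights (-0.32, adjusted p = 0.016). The 4-18 value was -1.56 in the deposited table. Wdr77, its partner in the methylosome, gave -0.68, -0.25 and -0.22 and passed in none. Prmt10 was the only member called at 2-fold in 3-44. It read 9.56, 10.06, 9.76 and 10.07 in CN-10 and 11.26, 10.86, 10.85 and 10.78 in 3-44, without overlap (log2 1.08, SE 0.24, adjusted p = 0.011). Its 4-18 arrays read 10.60, 11.16, 9.60 and 10.55 and reached down into CN-10 (log2 0.62, adjusted p = 0.0778), and the shRNA3T difference was 0.51 (adjusted p = 0.219). Without 3-44 replicate 1 the 3-44 difference of Prmt10 was 0.97, and without all first replicates it was 0.86 with an adjusted p of 0.0995. This call was also lost with 75th percentile scaling (0.73, adjusted p = 0.0938) and with the processed signal (0.73, adjusted p = 0.0891). Without 4-18 replicate 3 the 4-18 difference was 0.91 (adjusted p = 0.00116) and that of shRNA3T also passed (adjusted p = 0.043), as it did with array weights (0.0269) and with the arrays of the 2 groups alone (0.0204). The 4-18 difference passed with probes well above background only (0.0499) and was -0.05 in the deposited table. Carm1, a coactivator of transcription, gave -0.56, 0.01 and -0.53 (SE 0.28) and passed in none. In the deposited table its 4-18 difference was -1.175 and passed (adjusted p = 0.0178). Prmt2 was higher in 4-18 (0.55) and lower in shRNA3T (-0.31), and Prmt3 and Prmt7 passed in no comparison with CN-10.

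The METTL proteins, 22 genes with many substrates, held 4 of the 6 2-fold calls in 4-18, where 6.15% of all genes were called. The family was not tested against the other members. Mettl3, the catalytic subunit of the enzyme that makes N6-methyladenosine in mRNA, read 11.31, 12.23, 11.55 and 12.31 in CN-10 and 10.52, 11.24, 10.57 and 9.65 in 4-18. It read 11.31, 12.32, 12.40 and 12.26 in 3-44 and 11.75, 12.07, 11.94 and 11.97 in shRNA3T. Every 4-18 array was below every array of the other groups, and the nearest were 11.24 in 4-18 and 11.31 in CN-10 and 3-44. Mettl3 was 2.56-fold lower in 4-18 than in CN-10 (log2 -1.35, SE 0.32, adjusted p = 0.00536) and lower than in 3-44 (log2 -1.58, SE 0.32, adjusted p = 0.00194). Its 3-44 and shRNA3T differences from CN-10 were 0.22 and 0.08. Mettl14 is its partner in the same complex. Mettl14 was lower in 3-44, with 9.69, 9.93, 9.76 and 9.67 against 10.56, 10.42, 10.43 and 10.30 in CN-10 (log2 -0.66, SE 0.12, adjusted p = 0.00356), while 4-18 gave -0.16 (adjusted p = 0.428) and shRNA3T gave -0.30 (adjusted p = 0.146). The 3-44 call of Mettl14 was lost with 75th percentile scaling (-0.38, adjusted p = 0.103) and with the processed signal (-0.39, adjusted p = 0.0862). The shRNA3T difference passed without shRNA3T replicate 1 (-0.42, adjusted p = 0.023), without all first replicates (-0.37, adjusted p = 0.0444) and with array weights (-0.40, adjusted p = 0.00262). Mettl14 was higher in 4-18 than in 3-44 (log2 0.51, SE 0.12, adjusted p = 0.00804), the opposite of Mettl3. Of the enzymes that remove the mark, Alkbh5 was higher in 4-18 (log2 0.98) and 3-44 (1.02) and gave 0.54 in shRNA3T, and Fto was higher in 3-44 (0.48). Wtap, a further subunit of the writer, gave 0.04, 0.04 and 0.06.

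Mettl10, which methylates a lysine of elongation factor eEF1A, was 2.32-fold lower in 4-18. It read 11.70, 11.40, 11.52 and 11.37 in CN-10 and 10.82, 9.98, 10.33 and 10.00 in 4-18, without overlap (log2 -1.22, SE 0.18, adjusted p = 0.00013). The value was -0.83 with 75th percentile scaling and -0.79 with the processed signal, both under 2-fold, and -1.86 in the deposited table, and it passed under all 26 alternatives. In 3-44 it read between 11.39 and 11.79 and in shRNA3T between 11.21 and 11.80, both overlapping CN-10. Mettl13, which acts on the same elongation factor, was also lower in 4-18 (log2 -0.73), as were Mettl5, which methylates 18S rRNA (-0.84), Mettl21a (-0.42) and Mettl4 (-0.29). Mettl7a, a membrane protein of the endoplasmic reticulum and lipid droplets, rose in all 3 silenced groups. Its brighter probe read 15.25, 15.23, 15.26 and 15.16 in CN-10, 16.62, 16.11, 16.36 and 16.41 in 4-18, 15.64, 15.54, 15.70 and 15.44 in 3-44, and 16.002, 15.82, 15.81 and 15.79 in shRNA3T. The 4 groups did not overlap, in the order CN-10, 3-44, shRNA3T and 4-18. The log2 differences of Mettl7a were 1.15, 0.35 and 0.63 (SE 0.10), and its second probe gave 1.14, 0.53 and 0.79. The call of the brighter probe in 3-44 (adjusted p = 0.0357) was lost without any one of the CN-10 arrays, 3-44 replicates 1, 2 and 3 or shRNA3T replicate 3, with adjusted p up to 0.107, and with the processed signal (adjusted p = 0.0724). The 4-18 call was lost in the deposited table (0.49, adjusted p = 0.163).

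Mettl23 was 2.77-fold higher in 4-18. It read 8.07, 8.39, 8.68 and 8.77 in CN-10 and 9.52, 10.76, 10.13 and 9.38 in 4-18, without overlap (log2 1.47, SE 0.28, adjusted p = 0.00111). In 3-44 it read 8.60, 9.23, 9.26 and 9.31 and in shRNA3T 8.76, 9.45, 9.36 and 9.46, and in both groups the first replicate alone lay within the range of CN-10. Neither difference passed (0.62, adjusted p = 0.228, and 0.78, adjusted p = 0.0879). The shRNA3T difference passed without 4-18 replicate 2 (adjusted p = 0.0326) or shRNA3T replicate 1 (0.0497), with the arrays of the 2 groups alone (0.0303) and with array weights (0.000838), and the 3-44 difference passed with array weights (0.00889). The 4-18 call was lost in the deposited table (0.95, adjusted p = 0.0934). In shRNA3T, Mettl18 (-0.84), which methylates a histidine of a ribosomal protein, and Mettl6 (-0.57), which methylates cytidine in serine tRNA, were lower and Mettl20 (0.78), which acts on the electron transfer flavoprotein, was higher. None of these 3 passed in 4-18 or 3-44. The brightest probes of Mettl2, Mettl8, Mettl9, Mettl11a, Mettl17, Mettl19 and Mettl22 passed in no comparison with CN-10, and neither did Mettl7b, Mettl11b and Mettl21c.

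Of the tRNA methyltransferases, Trmt2a and Trmt61a were lower in all 3 silenced groups. Trmt2a, which makes 5-methyluridine in tRNA, read 12.23, 12.40, 12.41 and 12.43 in CN-10, 11.86, 11.86, 11.92 and 11.66 in 4-18, 11.63, 11.87, 11.86 and 11.70 in 3-44, and 11.63, 11.84, 11.74 and 11.61 in shRNA3T. All silenced arrays were below those of CN-10 and overlapped each other. The log2 differences were -0.54, -0.60 and -0.66 (SE 0.08), with adjusted p of 0.000244, 0.000349 and 9.04e-05, and the 4-18 value was -1.26 in the deposited table. Trmt61a, the catalytic subunit of the enzyme that methylates an adenosine in the T loop of tRNA, read 13.83, 13.72, 13.56 and 13.34 in CN-10 and 13.27, 12.89, 13.12 and 12.95 in 4-18. It read 12.29, 13.07, 12.94 and 13.01 in 3-44 and 12.53, 12.71, 12.73 and 12.58 in shRNA3T. Again no silenced array reached CN-10. The log2 differences of Trmt61a were -0.56 (SE 0.16, adjusted p = 0.0159), -0.79 (SE 0.16, adjusted p = 0.0051) and -0.98 (SE 0.16, adjusted p = 0.000618). The 4-18 call of Trmt61a was lost without CN-10 replicate 1 (adjusted p = 0.0506), and its 3-44 call with 75th percentile scaling (-0.59, adjusted p = 0.0589) and with the processed signal (-0.56, adjusted p = 0.0782). Its 4-18 value was -1.30 in the deposited table. Trmt6, the partner subunit of Trmt61a, was read by 2 probes that differed in 4-18, with -0.40 for the brighter, which did not pass, and -1.45 for the dimmer, which did. In 3-44 they gave -0.24 and -0.51 and in shRNA3T 0.30 and 0.37, and none passed. Trmt11 (0.66) and Trmt1l (0.62) were higher in 4-18. Trmt1, Trmt5 and Trmt12 passed in no comparison with CN-10. Trmt112, which activates several methyltransferases, gave 0.35 (adjusted p = 0.0653), 0.07 and -0.08, and the first of these passed without CN-10 replicate 4 (adjusted p = 0.0426) or 4-18 replicate 4 (0.0406). In the deposited table it was -0.35 (adjusted p = 0.372). Among the NSUN cytosine methyltransferases, Nsun5, which acts on 28S rRNA, was higher in 3-44 (0.84) and gave -0.04 and 0.09 in 4-18 and shRNA3T. Nsun2, which acts on tRNA, gave 0.17, -0.13 and -0.07 (SE 0.13) and passed in none. Nsun4, Nsun6 and Nsun7 did not pass either.

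Of the 14 members read by several probes, the probes gave the same call for 7 in 4-18, 12 in 3-44 and 12 in shRNA3T, and in none of these 3 comparisons with CN-10 did 1 probe of a gene pass as higher and another as lower. Mettl7a and Kdm2a gave like values by both probes in 4-18. Kdm1b was 0.53 by its brighter and -0.60 by its dimmer probe there, and of the 3 Mettl9 probes 1 was lower (-0.85) while the others gave -0.18 and -0.37.

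**Figure D4:**
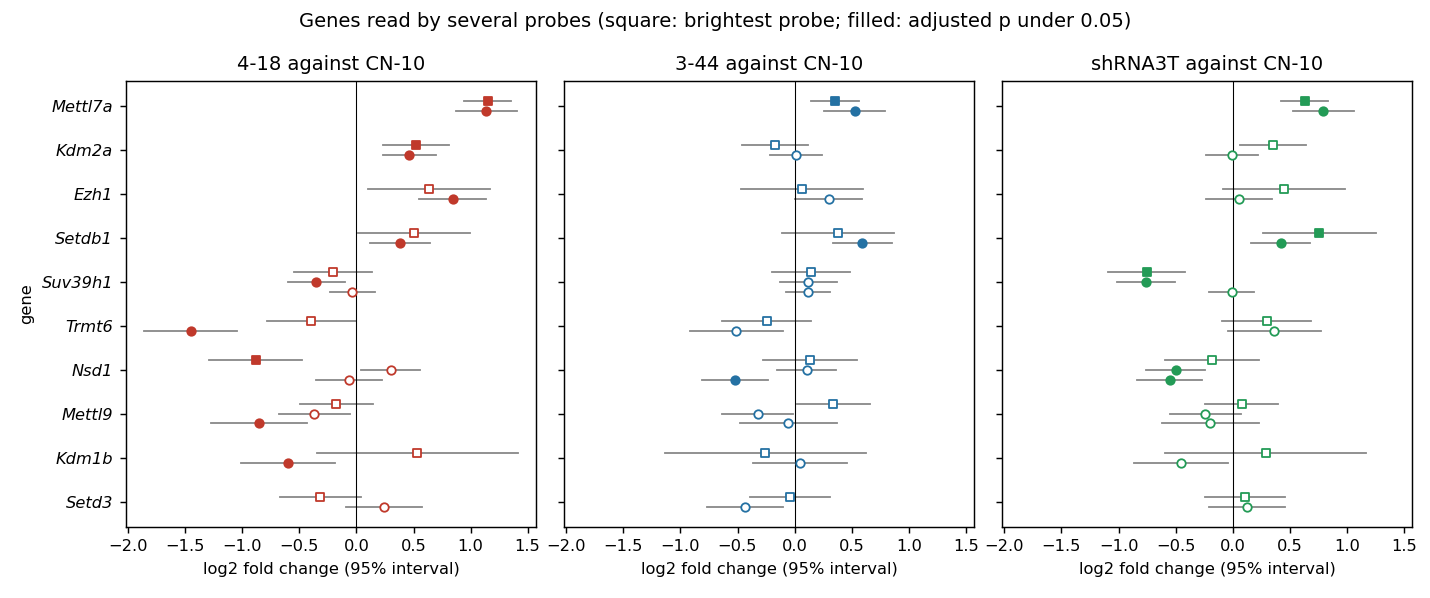
Log2 fold change against CN-10 (horizontal axis, with the 95% interval) of each probe of 10 genes read by several probes, 1 panel per silenced group. Squares are the brightest probe of a gene, circles the others, and filled symbols have an adjusted p under 0.05. Both Mettl7a probes are to the right of 0 in all panels, and the Trmt6 probes are apart in 4-18 at -0.40 and -1.45.

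Members also differed among the silenced groups. Between 4-18 and 3-44, 15 members passed as higher and 9 as lower in 4-18, against 12.4% and 10.1% of all genes, and 4 were called at 2-fold against 4.98%. These were Ezh2, Mettl3, Mettl10 (log2 -1.25, SE 0.18) and Nsd1 by its brightest probe (-1.02), all lower in 4-18. A dimmer Nsd1 probe passed as higher in the same comparison (0.45, adjusted p = 0.0245) and the third gave 0.19, so Nsd1 has no settled direction there. Between the clone and the pool that carry shRNA3, 9 members were higher and 7 lower in 3-44, against 5.36% and 5.57%, and 1, Kdm5b, was called at 2-fold against 2.12%. Suv39h1 was higher in 3-44 than in shRNA3T (log2 0.90, SE 0.16, adjusted p = 0.00187), as were Prmt7 (0.78), Nsun5 (0.74), Mettl6 (0.70), Mettl18 (0.69) and Prmt2 (0.48). Mettl20 (-0.91), Smyd3 (-0.80), Kdm3a (-0.65), Setd5 (-0.64) and Kdm2a (-0.52) were lower. Time under G418, clonal selection and the stable or transient state of the plasmid differ together between 3-44 and shRNA3T and cannot be told apart.

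A list of 26 genes of the supply and other uses of S-adenosylmethionine, all on the array, was read beside the members. In 4-18, Mat2a and Ahcyl2 were higher and Ahcy, Nnmt and Icmt lower. In 3-44, Ahcyl2 and Gamt were higher and Amd1 lower, and in shRNA3T, Mat1a and Mat2b were higher and Nnmt, Tpmt and Amd1 lower. The shares of all genes that passed as higher and lower were 11.6% and 12.4% in 4-18, 3.45% and 4.69% in 3-44, and 5.13% and 7.04% in shRNA3T. Mat1a, the liver methionine adenosyltransferase, gave log2 differences of 0.36, 0.97 and 1.28, of which the last passed (adjusted p = 0.0238), with 1 shRNA3T array set aside for an outlier mark. Ahcy, which removes S-adenosylhomocysteine, the product that inhibits methyltransferases, gave -0.87 in 4-18, -0.21 in 3-44 and -0.33 in shRNA3T. Nnmt, a major consumer of S-adenosylmethionine in liver, gave -1.13, -0.44 and -0.84, and it was well above background on 2 of the 4 arrays of 4-18 and on all others. The medians of the list were -0.005, -0.014 and -0.06, against 0.003, -0.008 and -0.008 for all genes.

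Of 42 names of partners and of other writers and erasers outside the name rule, 28 were on the array. There were 9 that passed as higher and 4 as lower in 4-18, where 11.6% and 12.4% of all genes did. The numbers were 4 and 1 in 3-44 (3.45% and 4.69%), and 3 and 8 in shRNA3T (5.13% and 7.04%). Rbbp5, a subunit of the H3K4 methyltransferase complexes, was higher in all 3 groups (log2 0.84, 0.37 and 0.47). Ash2l, of the same complexes, was lower in 4-18 (-0.87) and shRNA3T (-0.51). Uhrf1, which guides Dnmt1 to replicated DNA, was higher in 3-44 (0.64) and lower in shRNA3T (-1.07). The rRNA methyltransferases Fbl (-0.93 and -1.17 in 4-18 and shRNA3T) and Emg1 (-1.52 in shRNA3T) were lower, and the dioxygenase Jmjd6 was higher in 4-18 (1.39) and lower in shRNA3T (-0.45). The medians of this list were -0.108, 0.039 and -0.039.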

How the data were processed

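Agilent rat arrays with 1 color (16 in all) carried 4 biological replicates of each of 4 groups, which were taken from the labels. The authors used Feature Extraction 10.7.3.1 to quantify the scans. In the deposited files each spot has a linear, unnormalized intensity (its mean signal) and a median local background, with other columns that flag spots above background, saturated spots and outliers. The authors also deposited other values as a table per array whose decimal points were lost. Put back, these equal log2 of the normexp-corrected median signal (offset 50) within 4e-11, unscaled between arrays. The authors normalized with LIMMA for their lists, with settings not given in the sources used here.

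The analysis used limma 3.58.1 in R 4.3.3. Normexp (offset 50) corrected the background, control spots were left out, arrays were quantile normalized, outlier spots were set aside and spots of a probe averaged. A gene is read by its brightest probe. A probe was above background on an array when no fewer of its spots were than were not, as the software flagged them. One linear model, with 1 coefficient for each group, took in the 16 arrays (lmFit, eBayes), with Benjamini-Hochberg adjustment over all probes. Standard errors and 95% intervals come from this fit, and the number of arrays limits their precision. The smallest two-sided exact permutation p of 4 arrays against 4 is 0.0286. On simulated data with 29317 probes, 87, 87 and 91 of 100 changes of log2 1.5, and 97, 98 and 98 of 100 of log2 2.5, were recovered in 4-18, 3-44 and shRNA3T against CN-10, with 1, 0 and 1 wrongly called. The changes were put only into probes above a set CN-10 level, so dim probes are not covered. The noise was normal and independent between arrays, without the slide or first-replicate effects of the real arrays.

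The members and lists were chosen with earlier results of these data known. Named genes are those called at 2-fold in a comparison with CN-10 (8), those passing in the same direction in all 3 (5), and 16 fixed ones on the array, 23 genes in all, and Pdrg1. Genes outside this rule that the text names were chosen after their values were seen. One gene name under the pattern was left out and is not reported here. Probe positions are those of rn4 in the files. RefSeq names and promoters are of GRCr8, and no coordinate was converted. Alternatives were other signals and scalings, the deposited table, a filter on dim probes, flagged spots kept, a 1.5-fold limit, array weights, a replicate block, fits of 2 groups only, the mean of all probes, each array left out, and, chosen after seeing the data, all first replicates left out.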

Additional observations from a re-analysis of the deposited data

Results flagged for a closer look

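In 12 of the 96 groups of 4 arrays tested over 23 named members and Pdrg1, the highest or lowest array lay apart from the others by Dixon's test, where chance flags about 1 in 20 groups. The first replicate was the array apart in 11 of these. In Pdrg1 it read 11.57 in 4-18, 11.89 in 3-44 and 12.39 in shRNA3T, each below the others. In 3-44 it was low for Mettl23 (8.60), Mettl3 (11.31) and Trmt112 (14.88). In shRNA3T it was low for Mettl23 (8.76) and high for Mettl7a (16.002), Nsun2 (15.62) and Prmt5 (12.27). In CN-10 it was low for Trmt2a (12.23). The remaining one was Ehmt2 in CN-10 replicate 2, at 11.30. Deviations from the group means were compared between groups over all probes of the array with complete values, not over the members alone. Those of the first replicates correlated at 0.175 to 0.443 (6 pairs of groups), against -0.112 to 0.208 for the other replicate numbers (18 pairs). The replicate number is also the position of the array on its slide.

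The difference from CN-10 was not the same in 2 silenced groups for 4 members called at 2-fold. The log2 difference between 4-18 and 3-44 was -1.62 for Ezh2 (adjusted p = 6.15e-06, limma), -1.25 for Mettl10 (adjusted p = 0.000114) and -1.58 for Mettl3 (adjusted p = 0.00194). Between 3-44 and shRNA3T it was -1.16 for Kdm5b (adjusted p = 0.000514). In each of these comparisons all 4 arrays of the lower group lay below all 4 of the higher.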

How the results depend on the processing

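Of 1791 values of the 23 named members under the alternatives, 1693 stayed on their side of the threshold, 68 no longer passed in the same direction, 29 came to pass, and 1 that had passed turned sign, Ehmt2 in 4-18 (-0.0638 in the deposited table). Of the 1693, 60 values of 21 differences that did not pass had the other sign, 10 of them in the deposited table, 8 with 75th percentile scaling and 7 with the processed signal. In the deposited table these were among others Kdm3a (-0.31), Prmt10 (-0.05), Trmt112 (-0.35), Nsun2 (-0.50) and Kdm6b (-0.58) in 4-18. Of the losses, 20 came with the deposited table, which is not scaled between arrays, 7 with the processed signal after quantile normalization and 6 with 75th percentile scaling. The 4-18 differences of Carm1 (-1.175), Kdm1a (-0.75), Mettl14 (-0.80) and Setd2 (-1.11) passed in the deposited table and under none of the other alternatives. The median over all genes of the difference from CN-10 moved to 0.187, -0.05 and -0.225 in 4-18, 3-44 and shRNA3T with 75th percentile scaling, and to 0.131, -0.049 and -0.07 in the deposited table.

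The members called at 2-fold were 6 in 4-18, 1 in 3-44 and 2 in shRNA3T against CN-10, 4 in 4-18 against 3-44 and 1 in 3-44 against shRNA3T. With 75th percentile scaling they were 10, 0, 3, 2 and 3, in the same order, with the processed signal 7, 0, 4, 2 and 3, with the deposited values 13, 0, 2, 12 and 1, and with a limit of 1.5-fold 16, 6, 13, 15 and 10. With array weights and without all first replicates the 3-44 count was 0, and the shRNA3T count was 1 without them. Members with an adjusted p under 0.05 were 26, 11 and 17 in 4-18, 3-44 and shRNA3T. In 3-44 they were 7 with 75th percentile scaling, 4 with the processed signal, 0 with the deposited table and 18 with array weights. In shRNA3T they were 2 with the deposited table and 33 with array weights. The cause was not tested. With 1 array left out, the 2-fold counts ranged from 6 to 7 in 4-18, 0 to 1 in 3-44 (0 without CN-10 replicate 1 or 3-44 replicate 1), 1 to 3 in shRNA3T (1 without CN-10 replicate 1), 3 to 5 in 4-18 against 3-44, and 1 to 2 in 3-44 against shRNA3T (2 without 3-44 replicate 3), and the passing members from 20 to 27 in 4-18, 8 to 12 in 3-44 and 12 to 21 in shRNA3T.

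The replicate numbers are shared between groups, but 12 of 24 same-numbered pairs of groups had correlated deviations over 0.1, so they were not taken to pair the samples. With a replicate block the 2-fold counts were 6, 1, 2, 4 and 1 and the passing members 28, 13 and 22, and 2 values of named members came to pass, Prmt5 in 3-44 (adjusted p = 0.0499) and Mettl23 in shRNA3T (0.0267). Pdrg1, which passed in 17 of its 78 values, then did so in 4-18, 3-44 and shRNA3T (adjusted p = 0.0176, 0.0108 and 0.0183). Depth is not known for arrays, and members near background, such as Dnmt1, have at most a bound.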
